A study of Mus musculus with 2 samples.

Results

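A list of 10 genes, most of which osteoclasts use to form or to resorb bone, was followed through the cells of mouse pancreatic tumors. The members are the ligand gene Tnfsf11, the receptor gene Tnfrsf11a, the transcription factor genes Nfatc1 and St18, the fusion genes Dcstamp and Ocstamp, the proton pump gene Atp6v0d2, the resorption enzyme genes Acp5 and Ctsk, and Nyap2. The study names a subcluster of its tumor macrophages by Nyap2. The members were taken by symbol as a list, and all 10 were found once each among the 32285 genes of the count matrix. Their levels were described in osteoclast-like cells, defined as cells with at least 3 unique molecular identifiers (UMIs) of Acp5 and at least 3 of Ctsk, and in macrophage-like, tumor cell-like and fibroblast-like cells, in each library. Osteoclast-like cells were 483 of the 31265 cells kept.

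The study worked with a mouse pancreatic cancer line, KPC, which was grown in the tail of the pancreas of male C57BL/6 mice that were 5 to 7 weeks old. In the iIRE group, the tumors received an insufficient dose of irreversible electroporation when they measured 7 to 9 mm, as 99 pulses of 100 μs at 1000 V and 1 Hz between needles 5 mm apart. The control tumors had needles inserted without pulses according to the methods, while the results of the study call them untreated. Tumors of both groups carried the same KPC cells and were collected 3 days later for single-cell RNA sequencing from the 5′ end of the transcripts. Each group is 1 library, and the number of mice behind a library is not named. The tumor cells of both libraries come from 1 cultured line.

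Osteoclasts are large cells that form by fusion of myeloid precursors. The ligand RANKL, encoded by Tnfsf11, binds the receptor RANK, encoded by Tnfrsf11a, and the signal raises NFATc1, the transcription factor that turns on the genes of fusion and resorption. DC-STAMP and OC-STAMP take part in fusion, the d2 subunit of the vacuolar proton pump serves fusion and the acid that dissolves mineral, and the acid phosphatase TRAP and the collagen-cutting protease cathepsin K act in the resorption space. Osteoclasts belong to bone, and osteoclast-like giant cells are a known rare component of some pancreatic tumors.

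The counts are of whole genes, and the genes lie apart on mm10 in GENCODE vM21. Tnfsf11 is at chr14:78277445-78308043 on the minus strand and Tnfrsf11a at chr1:105780718-105847981 on the plus strand. St18 (chr1:6487231-6860940) and Nyap2 (chr1:81076950-81341764) share a chromosome with the receptor gene and are on the plus strand too. Dcstamp is at chr15:39745930-39760938 on the plus strand, and Ocstamp at chr2:165393760-165400405 and Atp6v0d2 at chr4:19876841-19922605 on the minus strand. Acp5 is at chr9:22126727-22135711 on the minus strand and Ctsk at chr3:95499256-95509362 on the plus strand.

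The sequences just upstream of the start sites are shown for the 2 genes that define the cells and for the receptor and ligand that begin the signal. They are the 250 bases before each start in RefSeq on GRCm38.p6, the assembly also called mm10, and 5 of the 10 members (Acp5, Ctsk, Tnfrsf11a, Tnfsf11 and Nyap2) had an entry. Capitals mark matches, on either strand, to the NFAT core GGAAA, to the AP-1 site TGANTCA, to the MITF/TFE E-box CATGTG and to the PU.1 core GAGGAA. A PU.1 core followed by A overlaps an NFAT core. Of 32851 promoters of this length, 55.6% hold the NFAT core, 6.75% the AP-1 site, 12.3% the E-box and 23.3% the PU.1 core. Acp5 has 3 start sites in the table, of which the third, with the most matches, is shown. The windows of the other two hold 1 NFAT core each, and the counts do not tell which start was used.
Acp5, chr9:22130599-22130848, minus strand: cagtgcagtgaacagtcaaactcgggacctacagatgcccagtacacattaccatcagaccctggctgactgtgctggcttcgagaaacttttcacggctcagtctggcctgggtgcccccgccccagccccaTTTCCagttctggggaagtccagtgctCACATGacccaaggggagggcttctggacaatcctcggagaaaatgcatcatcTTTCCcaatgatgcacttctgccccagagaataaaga
Ctsk, chr3:95498960-95499209, plus strand: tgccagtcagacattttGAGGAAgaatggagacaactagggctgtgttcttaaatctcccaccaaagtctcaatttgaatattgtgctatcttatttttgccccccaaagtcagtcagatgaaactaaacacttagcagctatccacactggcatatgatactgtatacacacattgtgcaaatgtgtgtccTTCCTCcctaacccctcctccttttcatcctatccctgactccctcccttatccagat
Tnfrsf11a, chr1:105780473-105780722, plus strand: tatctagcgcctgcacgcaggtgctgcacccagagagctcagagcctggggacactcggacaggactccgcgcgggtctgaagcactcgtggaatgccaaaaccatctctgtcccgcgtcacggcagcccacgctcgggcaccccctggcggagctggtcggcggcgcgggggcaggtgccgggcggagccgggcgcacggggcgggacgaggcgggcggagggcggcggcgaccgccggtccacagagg
Tnfsf11, chr14:78308044-78308293, minus strand: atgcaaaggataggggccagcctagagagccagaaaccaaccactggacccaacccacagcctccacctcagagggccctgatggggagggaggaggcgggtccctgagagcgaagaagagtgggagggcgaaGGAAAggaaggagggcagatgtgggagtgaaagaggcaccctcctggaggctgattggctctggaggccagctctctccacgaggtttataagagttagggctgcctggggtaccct
The Acp5 window holds 2 NFAT cores, 117 and 37 bases before the start, and 1 E-box at 90 bases. The Ctsk window holds 2 PU.1 cores, at 233 and 58 bases, and no match to the other 3 motifs. The Tnfsf11 window holds 1 NFAT core at 117 bases, and the Tnfrsf11a window holds none of the 4 motifs. The Nyap2 window, which is not shown, holds 2 NFAT cores at 17 and 12 bases. A match is a run of letters and not a measured binding site, and the lack of a match says only that these letters are absent from the window.

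The count matrix does not name its libraries, and the barcode endings 1 and 2 were read as control and iIRE from the library numbers in the labels. The study states the mean UMIs per cell of both groups in the other order than found here, and their cell numbers in the same order. Its cell types went both ways. T/NK-like cells, 76 and 28 here, were in the order it gives for T cells, and macrophage-like cells were not in its order for macrophages. The match of barcode endings to groups could thus not be settled. Each difference between the libraries rests on it. There were 18538 control barcodes with 247105192 UMIs in total, and 19433 iIRE barcodes with 222153118 UMIs. After the filters of the study and the removal of doublets, 15274 control cells and 15991 iIRE cells remained. The libraries shared 458 barcode sequences, which were kept as separate cells. The cells were clustered without the members and without the other osteoclast genes listed further on, and a cluster was named from markers, from Y-linked transcripts that mark cells of the male host and from the absence of these in the tumor line. Macrophage-like cells were 1066 in the control library and 1006 in the iIRE library, tumor cell-like cells 5529 and 5362, and fibroblast-like cells 1279 and 1289. A cluster of 61 control and 77 iIRE fibroblast-like cells had Y-linked transcripts at 121 and 120 counts per 1e6 UMIs (CPM) and is called host fibroblast-like. The other 1218 and 1212 had Y-linked transcripts at 0.133 and 0.0506 CPM and are called Y-negative fibroblast-like. Their level of Cdkn2a, a marker of the KPC cells here, was 1034 and 1079 CPM. In tumor cell-like cells Y-linked transcripts stood at 0.156 and 0.189 CPM and Cdkn2a at 1436 and 1532 CPM. Host fibroblast-like cells had Cdkn2a at only 72.3 and 30.3 CPM. By both measures the Y-negative fibroblast-like cells were like the tumor line and unlike host fibroblasts.

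Cells of unnamed clusters stood apart and bear on each value for osteoclast-like cells. Of the 288 osteoclast-like cells of the control library, 106 lay in clusters of myeloid cells and 182 in unnamed clusters. Of the 195 of the iIRE library, these numbers were 122 and 73. The osteoclast-like cells of the unnamed clusters mixed transcripts of several cell types. Their Y-linked transcripts stood at 12.1 CPM in the control and 12.4 CPM in the iIRE library, against 88.8 and 91.3 CPM in the osteoclast-like cells of myeloid clusters. Their Cdkn2a level was 999 and 1018 CPM, against 6.98 and 4.98 CPM, and their median depth was 7332.5 and 6572 UMIs per cell, against 14518.5 and 13737. The part of this mixture in the results was not tested, so each result is given for all osteoclast-like cells and for those of myeloid clusters.

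Most osteoclast-like cells of the myeloid clusters came from a single cluster, which had been formed without the members. It was named from markers other than the members and had 8 of 10 osteoclast markers past the naming threshold, among them Mmp9, a matrix protease, and Itgb3, the integrin subunit by which osteoclasts attach. This osteoclast cluster had 154 control and 242 iIRE cells, of which 99 (64.3%) and 119 (49.2%) met the Acp5 and Ctsk cutoff. The other 7 control and 3 iIRE cells were in macrophage-like clusters. The summed level of the 10 osteoclast markers was 7448 CPM in control and 4888 CPM in iIRE osteoclast-like cells of myeloid clusters, against 236 and 254 CPM in macrophage-like cells. The 15 macrophage markers summed to 3010 and 2739 CPM, against 36510 and 35731 CPM in macrophage-like cells, and the fibroblast markers to 38.1 and 27.1 CPM. In the osteoclast-like cells of unnamed clusters the osteoclast markers summed to 525 and 363 CPM and the fibroblast markers to 9728 and 6691 CPM. Osteoclast cluster cells under the cutoff had the osteoclast markers at a like sum, 474 and 472 CPM, and neutrophil-like cells at 672 and 842 CPM. Most of the sum in osteoclast-like cells of myeloid clusters was Mmp9, whose level is given further on. Osteoclast markers other than the members were high in the osteoclast-like cells of myeloid clusters. This was partly set by the naming of the osteoclast cluster from these markers, so it is a description. The markers were lower in the osteoclast-like cells of unnamed clusters, though above macrophage-like cells. Those of unnamed clusters are called osteoclast-like here by the cutoff alone. The unnamed clusters were not alike in this. Of their osteoclast-like cells, 26 control cells lay in a cluster with 4 osteoclast markers past the naming threshold, left unnamed for Y-linked transcripts at only 18.3 CPM. Another 15 iIRE cells lay in an unnamed cluster led by Ctsk and Mmp9. Cdkn2a stood at 689 and 949 CPM in these clusters. All 10 osteoclast markers are also in the list of osteoclast genes described further on.

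The share of osteoclast-like cells depended on the cutoff. Of the control cells 1.89% were osteoclast-like (exact 95% interval 1.68 to 2.11%), and of the iIRE cells 1.22% (1.06 to 1.40%). In myeloid clusters alone the shares were close, at 0.694% and 0.763% from 106 and 122 cells, with the order of the libraries turned. Intervals here, for shares and for sums of UMIs alike, reflect counting error and leave out how mice or cells vary. At 20 UMIs of each gene, 88 control cells (0.576%, 0.462 to 0.709%) and 100 iIRE cells (0.625%, 0.509 to 0.760%) were left, and 86 and 100 of these lay in myeloid clusters. The whole osteoclast cluster made up 1.01% of control cells (0.856 to 1.18%) and 1.51% of iIRE cells (1.33 to 1.71%). The library with the larger share thus differed between the cutoffs, and the share in unnamed clusters moved with it.

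**Figure D1:**
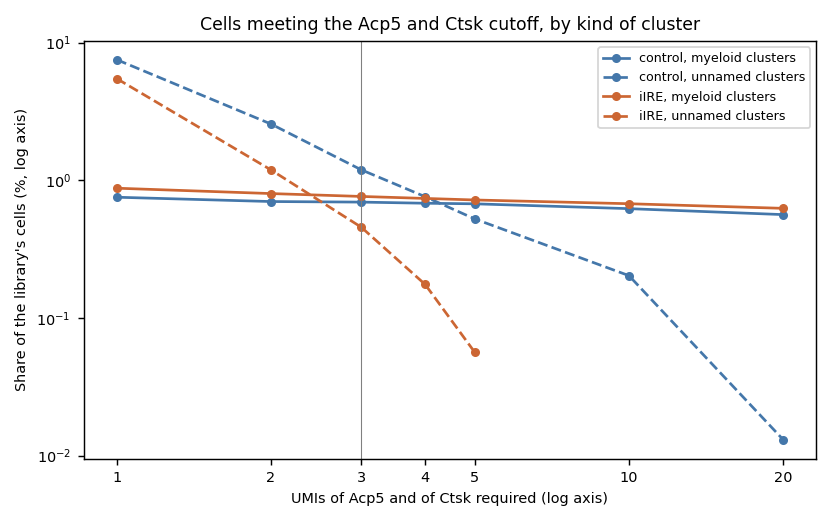
Share of each library's cells (percent, log axis) that met the cutoff, against the UMIs of Acp5 and of Ctsk required (log axis), with solid lines for cells in myeloid clusters and dashed lines for cells in unnamed clusters. The vertical line marks the cutoff of 3 UMIs; the solid lines are nearly level and the dashed lines fall steeply, from 1146 control and 874 iIRE cells at 1 UMI to 2 and 0 cells at 20 UMIs.

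The members were also summed over the cells just inside and just outside the cutoff. In 337 cells the lower of both counts was 2, and in 117 cells it was 3. Atp6v0d2 stood at 48.4 CPM in the former and 57.8 CPM in the latter, Nfatc1 at 119 and 143 CPM, and Dcstamp at 10.5 and 7.23 CPM. Tnfrsf11a and St18 were higher inside, at 32.5 against 18.8 CPM and 30.1 against 19.6 CPM. Cdkn2a stood at 983 CPM outside and 933 CPM inside.

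Tnfsf11, the ligand gene, was not detected in the osteoclast-like cells of myeloid clusters. It had 0 UMIs in 106 control cells and 0 in 122 iIRE cells, which allows up to 1.90 and 1.66 CPM at a floor of 3 counts per library. The 9 control and 3 iIRE UMIs found in osteoclast-like cells all lay in cells of unnamed clusters. The highest Tnfsf11 level among the named classes was in T/NK-like cells, with 71.0 CPM in the control (23 UMIs in 76 cells, interval 45.0 to 106 CPM) and 71.3 CPM in the iIRE library (8 UMIs in 28 cells, 30.8 to 141 CPM). T cells are a known source of RANKL. Y-negative fibroblast-like cells followed with 11.5 CPM (258 UMIs, 10.1 to 12.9 CPM) and 9.42 CPM (186 UMIs, 8.11 to 10.9 CPM), and tumor cell-like cells with 1.22 CPM (1.03 to 1.43 CPM) and 1.34 CPM (1.13 to 1.58 CPM). The intervals of these 3 classes did not overlap in either library. Host fibroblast-like cells had 1 and 2 UMIs and macrophage-like cells 1 and 0. Dendritic-like and neutrophil-like cells had 0 UMIs, which at the same floor allows up to 12.6 and 63.3 CPM and 14.3 and 14.0 CPM. Whether these stood above Y-negative fibroblast-like cells is thus not known. By number of UMIs, the most came from Y-negative fibroblast-like cells, which by Y-linked transcripts and Cdkn2a were like the tumor line. Tumor cell-like cells held 148 and 142 UMIs and unnamed cells 142 and 113.

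A Tnfsf11 UMI was seen in 10.0% of control and 7.18% of iIRE Y-negative fibroblast-like cells, whose median depths were 17822.5 and 15761.5 UMIs. Tumor cell-like cells, with medians of 20857 and 18517.5 UMIs, had one in 1.74% and 1.88%. After every cell was thinned to 2000 UMIs, the shares were 2.31% and 1.57% against 0.240% and 0.211%, and 11.8% and 7.69% in T/NK-like cells. The order of the classes was thus the same at equal depth. The highest count in a cell was 9 UMIs in the control and 13 in the iIRE Y-negative fibroblast-like cells, against 3 UMIs in T/NK-like cells. The log2 ratio of iIRE over control was -0.14 (interval -0.28 to -0.01) in fibroblast-like cells and 0.02 (-0.02 to 0.05) in tumor cell-like cells. Unless stated otherwise, log2 ratios are those of CPM after 10 CPM was added to both values, which brings low levels close together. Without it, the iIRE level was 0.819 of the control level in fibroblast-like cells and 1.10 of it in tumor cell-like cells.

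Tnfrsf11a, the receptor gene, was found in macrophage-like and dendritic-like cells and was highest in osteoclast-like cells of myeloid clusters. Its level in osteoclast-like cells of myeloid clusters was 272 CPM (247 to 299 CPM) in the control and 275 CPM (251 to 300 CPM) in the iIRE library, and 96 of 106 and 117 of 122 cells had a UMI. Over all osteoclast-like cells the levels were 154 and 220 CPM. Cells of the osteoclast cluster that missed the cutoff stood between these and macrophages with 162 CPM (135 to 193 CPM) and 207 CPM (184 to 232 CPM). Macrophage-like cells had 62.8 CPM (57.3 to 68.7 CPM) and 75.9 CPM (69.2 to 83.0 CPM). Dendritic-like cells had 193 CPM (141 to 257 CPM) in 35 control cells, and 106 CPM (34.3 to 246 CPM) from only 5 UMIs in 10 iIRE cells. Tumor cell-like cells had 2.16 and 2.04 CPM. Neutrophil-like cells had 0 UMIs, which allows up to 14.3 and 14.0 CPM at a floor of 3 counts per library. Mature dendritic cells are known to carry RANK. After thinning, 42.9% and 40.2% of osteoclast-like cells of myeloid clusters had a Tnfrsf11a UMI, 12.6% and 14.0% of macrophage-like cells, and 0.498% and 0.308% of tumor cell-like cells.

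The classes with the highest ligand and receptor levels differed. Tnfrsf11a had 0 UMIs in control and 1 in iIRE T/NK-like cells, and 5.64 and 5.77 CPM in Y-negative fibroblast-like cells. Tnfrsf11b, the gene of the decoy receptor that binds RANKL, had 0 UMIs in the osteoclast-like cells of myeloid clusters of both libraries and was found in host fibroblast-like cells at 97.7 and 63.3 CPM.

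Nfatc1, the transcription factor at the center of osteoclast formation, stood at 806 CPM (762 to 851 CPM) in control and 789 CPM (748 to 831 CPM) in iIRE osteoclast-like cells of myeloid clusters. It was detected in 103 of 106 and 119 of 122 of these cells. Macrophage-like cells had 33.1 and 34.9 CPM, and the former levels were 24.4-fold and 22.6-fold higher. The gene was also present outside the myeloid cells, with 38.9 and 39.2 CPM in tumor cell-like cells, 60.2 and 60.4 CPM in Y-negative fibroblast-like cells, and 126 CPM (105 to 150 CPM) and 157 CPM (134 to 182 CPM) in host fibroblast-like cells. In the osteoclast-like cells of unnamed clusters it was 130 CPM (112 to 150 CPM) and 151 CPM (119 to 190 CPM), close to host fibroblast-like cells. Osteoclast cluster cells under the cutoff had 408 and 430 CPM. Nfatc1 was thus not limited to cells with osteoclast markers.

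St18, which encodes a zinc finger transcription factor, followed the osteoclast cluster as a whole. It stood at 200 CPM (179 to 224 CPM) and 187 CPM (167 to 208 CPM) in osteoclast-like cells of myeloid clusters and at 182 CPM (153 to 214 CPM) and 143 CPM (125 to 164 CPM) in osteoclast cluster cells under the cutoff. Macrophage-like cells had 30.1 CPM (26.4 to 34.3 CPM) and 33.5 CPM (29.1 to 38.3 CPM), mostly from the cluster led by C1qa and Apoe, with 202 of 227 control and 198 of 210 iIRE UMIs. Tumor cell-like cells had 1.35 and 1.73 CPM, and host fibroblast-like, dendritic-like and neutrophil-like cells had 0 UMIs in both libraries. T/NK-like cells had 1 and 0 UMIs, and Y-negative fibroblast-like cells 2.00 and 2.53 CPM. St18 was thus low in tumor cell-like and both kinds of fibroblast-like cells. A floor of 3 counts per library is 12.6 and 63.3 CPM in dendritic-like, 14.3 and 14.0 CPM in neutrophil-like and 9.26 and 26.8 CPM in T/NK-like cells. In iIRE dendritic-like cells this is above the macrophage-like level, so a low level cannot be told there.

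Dcstamp, whose protein is needed for the fusion of osteoclast precursors and was first described in dendritic cells, differed between the clusters of macrophage-like cells, as St18 and Atp6v0d2 did in the other direction. In osteoclast-like cells of myeloid clusters it stood at 185 CPM (165 to 208 CPM) and 151 CPM (133 to 170 CPM). In macrophage-like cells it stood at 74.4 CPM (68.3 to 80.8 CPM) in the control and 37.3 CPM (32.7 to 42.4 CPM) in the iIRE library. These UMIs were held by few cells. Of the 560 control and 234 iIRE UMIs, 542 and 210 lay in the cluster led by Cd74 and other major histocompatibility complex class II genes, where the levels were 206 and 96.1 CPM, against 3.68 and 5.87 CPM in the cluster led by C1qa. The 56 control and 32 iIRE macrophage-like cells with at least 3 Dcstamp UMIs had dendritic cell markers at a summed level of 957 and 1963 CPM, against 69.0 and 53.6 CPM in cells without a Dcstamp UMI, and 4 of the 9 dendritic markers were at least 2-fold higher in both libraries. Their macrophage markers summed to 15250 and 15546 CPM, against 39143 and 36930 CPM. Their median depth was 9212.5 and 7432.5 UMIs, against 6408 and 5648, and the part of depth in this was not tested. The dendritic-like cluster itself, led by Ccl5, Ccr7 and Ccl22, had 0 Dcstamp UMIs in 35 control and 10 iIRE cells. This allows up to 12.6 and 63.3 CPM at a floor of 3 counts per library.

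Ocstamp, the partner of Dcstamp in fusion, had no second site of like level. It stood at 161 CPM (142 to 182 CPM) and 146 CPM (128 to 164 CPM) in osteoclast-like cells of myeloid clusters, and at 1.33 and 1.28 CPM from 10 and 8 UMIs in macrophage-like cells. Of these few UMIs, 9 control and 8 iIRE UMIs lay in the cluster led by Cd74, as for Dcstamp, at only 3.41 and 3.66 CPM. Other Ocstamp values were 11.8 CPM (5.38 to 22.3 CPM) and 17.9 CPM (11.7 to 26.3 CPM) in osteoclast cluster cells under the cutoff. In osteoclast-like cells of unnamed clusters they were 14.2 and 4.15 CPM. In tumor cell-like cells Ocstamp had 12 and 8 UMIs in all.

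Atp6v0d2, the subunit of the proton pump that osteoclasts add to the common pump, stood at 1264 CPM in the control and 935 CPM (891 to 981 CPM) in the iIRE library in osteoclast-like cells of myeloid clusters. It was detected in 102 of 106 and 120 of 122 cells. Macrophage-like cells had 12.7 CPM (10.3 to 15.6 CPM) and 15.1 CPM (12.3 to 18.5 CPM), of which 88 of 96 and 87 of 95 UMIs lay in the cluster led by C1qa. Osteoclast cluster cells under the cutoff had 233 CPM (200 to 269 CPM) and 201 CPM (178 to 225 CPM). Tumor cell-like cells had 13 and 4 UMIs in 5529 and 5362 cells. After thinning, 85.7% and 72.1% of osteoclast-like cells of myeloid clusters had an Atp6v0d2 UMI, 2.18% and 2.31% of macrophage-like cells and 0.0184% and 0.0192% of tumor cell-like cells.

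Acp5 and Ctsk chose the osteoclast-like cells, so their levels there are a description. In the myeloid clusters Acp5 stood at 10512 CPM in the control and 7383 CPM in the iIRE library, and Ctsk at 12366 and 8247 CPM. The spread between cells was wide, with medians per cell of 10441 and 6308 CPM for Acp5 and 12912 and 6643 CPM for Ctsk, and 355 and 529 UMIs as the highest counts of each gene in a control cell. Outside these cells the genes parted. Acp5 was found in macrophage-like cells at 39.2 CPM (34.8 to 43.9 CPM) and 52.6 CPM (47.1 to 58.6 CPM), in T/NK-like cells at 139 CPM (101 to 186 CPM) and 98.1 CPM (49.0 to 176 CPM), and in host fibroblast-like cells at 44.8 and 36.7 CPM. Ctsk was at 3.05 and 5.90 CPM in macrophage-like cells, and its main other site was host fibroblast-like cells with 307 CPM (274 to 344 CPM) and 249 CPM (220 to 280 CPM). Cathepsin K is known in fibroblasts, and TRAP in macrophages.

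At 3 UMIs each, Acp5 alone was met by 32 of the 154 control and 72 of the 242 iIRE cells of the osteoclast cluster, and Ctsk alone by 0 and 2. In host fibroblast-like cells the order was the other way, with Ctsk alone in 33 of 61 and 36 of 77 cells and Acp5 alone in 7 and 4. No host fibroblast-like, Y-negative fibroblast-like or tumor cell-like cell met both. In the unnamed clusters 182 of 6940 control cells (2.62%) and 73 of 7853 iIRE cells (0.930%) met both.

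Nyap2 was found mainly in the osteoclast-like cells of myeloid clusters, on few UMIs. It stood there at 43.8 CPM (34.1 to 55.4 CPM) in the control and 18.3 CPM (12.6 to 25.6 CPM) in the iIRE library, from 69 UMIs in 27 cells and 33 UMIs in 24 cells. It had 0 UMIs in 1066 and 1006 macrophage-like cells and 0 in the 55 and 123 osteoclast cluster cells under the cutoff. Against a floor of 3 counts per library in macrophage-like cells, the measured level in osteoclast-like cells of myeloid clusters was at least 110-fold higher in the control and at least 38.2-fold higher in the iIRE library. The exceptions were 2 UMIs in iIRE osteoclast-like cells of unnamed clusters, 12 and 10 UMIs in other unnamed cells, 1 and 3 UMIs in tumor cell-like cells and 1 UMI in a control host fibroblast-like cell.

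**Figure D2:**
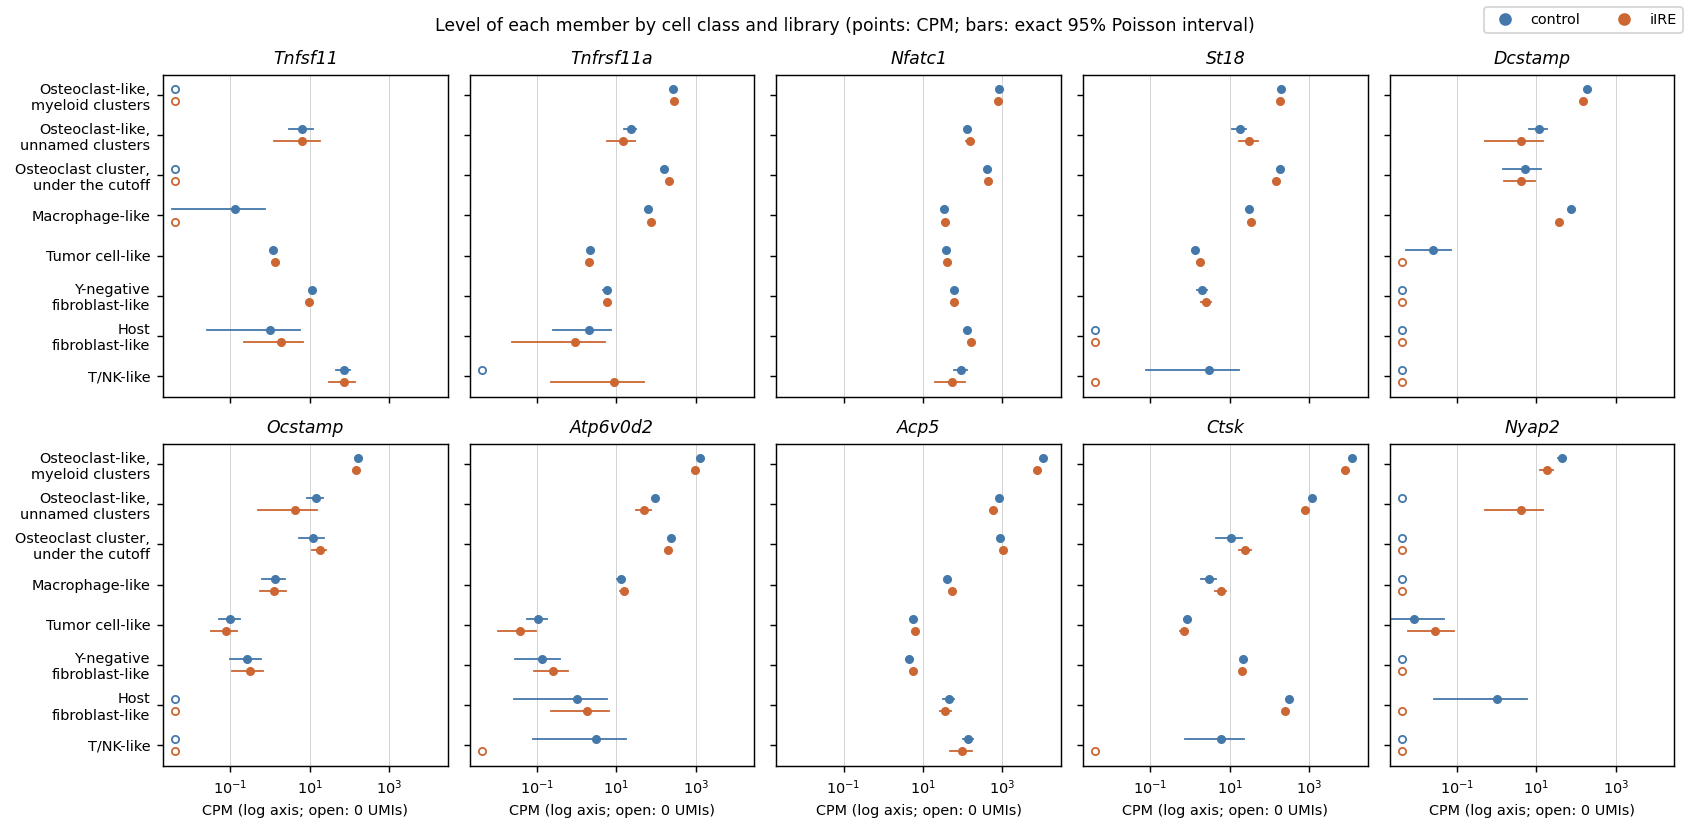
Level of each member in CPM (log axis) in 8 classes of cells, blue for the control and orange for the iIRE library, with exact 95% Poisson intervals and open circles for 0 UMIs. Tnfsf11 is highest in T/NK-like cells at 71.0 and 71.3 CPM and has 0 UMIs in osteoclast-like cells of myeloid clusters, Nfatc1 is present in every class shown, and Nyap2 is at 43.8 and 18.3 CPM in osteoclast-like cells of myeloid clusters and at or near 0 elsewhere.

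Compared with macrophage-like cells, most members were higher in osteoclast-like cells. The count leaves out Acp5 and Ctsk, which chose the cells, and Tnfsf11, which had fewer than 50 UMIs in these classes. Of the other 7 members, 6 were at least 2-fold higher in both libraries, where 6.46% of 10982 genes were so. The exception was Dcstamp, with log2 ratios of 0.42 in the control and 1.45 in the iIRE library. In the osteoclast-like cells of myeloid clusters all 7 were at least 2-fold higher in both libraries, where 5.2% of 10357 genes were so. The log2 ratios were 5.81 (5.63 to 5.98) and 5.23 (5.04 to 5.42) for Atp6v0d2, 4.24 and 4.15 for Nfatc1 and 3.92 and 3.79 for Ocstamp. They were 2.43 and 1.50 for Nyap2, 2.39 and 2.18 for St18, 1.95 and 1.73 for Tnfrsf11a and 1.21 (1.02 to 1.40) and 1.76 (1.54 to 1.98) for Dcstamp. The order of the members depends on the added 10 CPM. Without it, Ocstamp was 121-fold and 114-fold higher, over 10 and 8 UMIs in macrophage-like cells, Atp6v0d2 99.2-fold and 61.7-fold and Nfatc1 24.4-fold and 22.6-fold. Compared with tumor cell-like, fibroblast-like and host fibroblast-like cells, the same 7 members were at least 2-fold higher in all osteoclast-like cells of both libraries, where 4.97%, 5.56% and 8.65% of genes were so, and Tnfsf11 was not. Nyap2 had 0 UMIs in macrophage-like cells and was counted only through the osteoclast-like cells. Since the clusters were formed from these cells, and with 1 library per group, these are descriptions and not tests.

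The osteoclast cluster also held cells that missed the cutoff, 55 in the control and 123 in the iIRE library, and the members differed in how far they reached into these. The receptor and the transcription factors were present on both sides. Osteoclast-like cells of myeloid clusters over these cells gave log2 ratios of 0.71 (0.44 to 1.00) in the control and 0.39 (0.19 to 0.60) in the iIRE library for Tnfrsf11a, 0.14 (-0.14 to 0.42) and 0.36 (0.12 to 0.60) for St18, and 0.97 (0.79 to 1.14) and 0.86 (0.72 to 1.00) for Nfatc1, all under 2-fold. The genes of fusion and acid were higher inside the cutoff. The log2 ratio was 2.39 (2.18 to 2.61) and 2.17 (1.99 to 2.34) for Atp6v0d2, 2.98 (2.38 to 3.50) and 2.48 (2.06 to 2.87) for Ocstamp, and 3.68 (3.04 to 4.11) and 3.51 (3.05 to 3.82) for Dcstamp. Nyap2 had 0 UMIs under the cutoff and was at least 11.2-fold and 8.83-fold higher above it, against a floor of 3 counts per library. In this count 4 of 7 members were at least 2-fold higher in both libraries, where 2.9% of 8061 genes were so. Nyap2 was counted only through the cells above the cutoff. Acp5 and Ctsk split the cells of 1 cluster, and the members were listed as genes of the same cell type. The count is thus a description and not a test.

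The cells of the osteoclast cluster under the cutoff had a median depth of 13969 UMIs in the control and 11680 in the iIRE library, against 14518.5 and 13737 UMIs in osteoclast-like cells of myeloid clusters. Acp5 was still at 894 CPM (828 to 963 CPM) and 1011 CPM (960 to 1064 CPM), with a UMI in 45 of 55 and 88 of 123 cells, while Ctsk was at 10.5 and 24.8 CPM. C1qa stood at 282 and 240 CPM, against 38.7 and 70.3 CPM in osteoclast-like cells of myeloid clusters and 4133 and 3892 CPM in macrophage-like cells. The part of these in the differences was not tested.

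**Figure D3:**
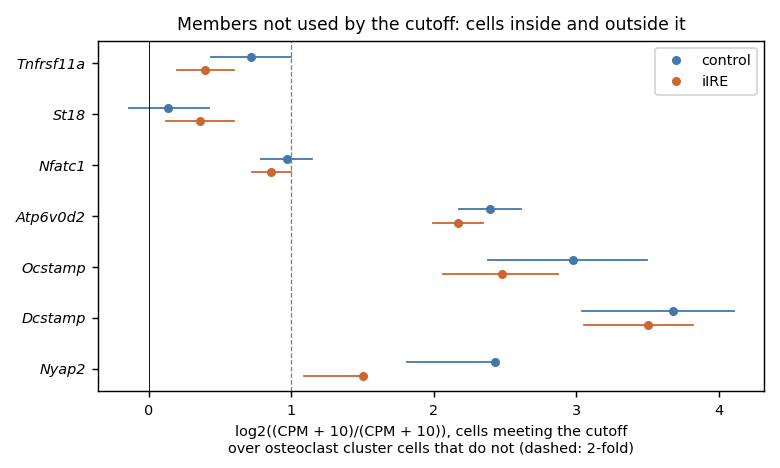
Log2 ratio of each member that the cutoff did not use, in osteoclast-like cells of myeloid clusters over osteoclast cluster cells that missed the cutoff, with exact 95% intervals, blue for the control and orange for the iIRE library and a dashed line at 2-fold. Tnfrsf11a, St18 and Nfatc1 lie left of the line with values from 0.14 to 0.97, and Atp6v0d2, Ocstamp, Dcstamp and Nyap2 lie right of it with values from 1.50 to 3.68; Nyap2 had 0 UMIs in the cells that missed the cutoff.

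Most osteoclast-like cells of myeloid clusters had UMIs of several members. Of 7 members (Tnfrsf11a, Nfatc1, St18, Dcstamp, Ocstamp, Atp6v0d2 and Nyap2), at least 4 had a UMI in 95 of 106 control (89.6%) and 113 of 122 iIRE (92.6%) osteoclast-like cells of myeloid clusters, and all 7 in 18 and 16 cells. In osteoclast cluster cells under the cutoff, at least 4 were found in 22 of 55 (40.0%) and 47 of 123 (38.2%). In macrophage-like cells this was so in 3 of 1066 and 4 of 1006, and in tumor cell-like cells in 1 of 5529 and 0 of 5362. The osteoclast-like cells of unnamed clusters had at least 4 in 6 of 182 (3.30%) and 1 of 73 (1.37%). Median depth was 14518.5 and 13737 UMIs in osteoclast-like cells of myeloid clusters, and 7332.5 and 6572 in those of unnamed clusters. It was 6629.5 and 5759 UMIs in macrophage-like cells, and 20857 and 18517.5 in tumor cell-like cells. The part of depth in these counts was not tested.

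The fusion genes were each found in a majority of these cells. Among osteoclast-like cells of myeloid clusters, 72 control and 80 iIRE cells had Dcstamp, 74 and 82 had Ocstamp, and 59 and 63 had both. Cells with Nyap2 had most other members as well. Of the 27 control and 24 iIRE cells with Nyap2, 24 and 23 also had Dcstamp, 24 and 19 had Ocstamp, 25 and 19 had St18, and all had Nfatc1 and Atp6v0d2. Dcstamp was found in 67.9% and 65.6% of all osteoclast-like cells of myeloid clusters, and Ocstamp in 69.8% and 67.2%. Median depth was 14324 UMIs in control cells with Nyap2 and 14585 without, and 14883.5 and 13686 in iIRE cells. These counts describe cells of 1 library each, and cells with Dcstamp were deeper than those without, with medians of 15632.5 against 12937.5 UMIs in the control and 15176.5 against 12364.5 in the iIRE library.

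Between the libraries, the members gave different counts over all osteoclast-like cells and over those of myeloid clusters. A gene was counted with at least 50 UMIs over both libraries and past 1.2-fold, the size the study used. Over all osteoclast-like cells, 4 of 9 members counted were higher in the iIRE library, where 15.7% of 8706 genes were higher. These were Tnfrsf11a with a log2 ratio of 0.49 (0.31 to 0.66), Nfatc1 with 0.42 (0.32 to 0.52), St18 with 0.40 (0.20 to 0.60) and Ocstamp with 0.31 (0.08 to 0.53). Nyap2 was lower at -0.39 (-0.77 to 0.01), where 24.5% of genes were lower. In myeloid clusters, 0 of 9 were higher, where 21.3% of 6601 genes were higher, and 5 were lower, where 14.1% were lower. In unnamed clusters, 3 of 4 members counted were lower, where 19.2% of 5957 genes were lower, and 0 were higher, where 17.7% were higher. Of these 3, Acp5 and Ctsk had chosen the cells, and the third was Atp6v0d2. The control osteoclast-like cells held more cells of unnamed clusters, 182 of 288 against 73 of 195, and the part of this in the ratios over all osteoclast-like cells was not tested.

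The 5 members lower in the iIRE library in myeloid clusters were Acp5, Ctsk, Atp6v0d2, Dcstamp and Nyap2, or 3 of 7 without the genes that chose the cells. Acp5 had a log2 ratio of -0.51 (-0.54 to -0.48) and Ctsk of -0.58 (-0.61 to -0.55), both a description in cells chosen by these genes. Atp6v0d2 had -0.43 (-0.52 to -0.34), Dcstamp -0.28 (-0.51 to -0.05) and Nyap2 -0.93 (-1.36 to -0.48). The other 4 were under 1.2-fold, with Tnfrsf11a at 0.01 (-0.17 to 0.20), Nfatc1 at -0.03 (-0.14 to 0.08) and St18 at -0.10 (-0.31 to 0.12), and Ocstamp at -0.14 (-0.38 to 0.10). In the whole osteoclast cluster, which needs no Acp5 or Ctsk, 6 of 9 were lower, where 11.5% of 8016 genes were lower, and 0 were higher, where 16.4% were higher. There the log2 ratio was -0.71 for Acp5, -0.86 for Ctsk, -0.61 for Atp6v0d2, -0.53 for Dcstamp, -0.33 for Ocstamp and -0.98 for Nyap2, against -0.10 for Nfatc1, -0.20 for St18 and 0.06 for Tnfrsf11a. The median over all genes was 0.03. In this cluster 55 of 154 cells were under the cutoff in the control library and 123 of 242 in the iIRE library, and fewer cells that express a gene and less RNA of it per cell cannot be told apart in a sum over cells.

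In osteoclast cluster cells under the cutoff, only Tnfrsf11a was higher in the iIRE library at 0.33 (0.04 to 0.63) and St18 lower at -0.32 (-0.62 to -0.02), of 5 members with enough UMIs, where 14.2% of genes were higher and 16.3% lower. With 1 library per group, no difference between the libraries could be tested, and each may be that of the mice in a library. Depth differed as well, with medians of 8168 UMIs per barcode in the control and 6588 in the iIRE library.

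**Figure D4:**
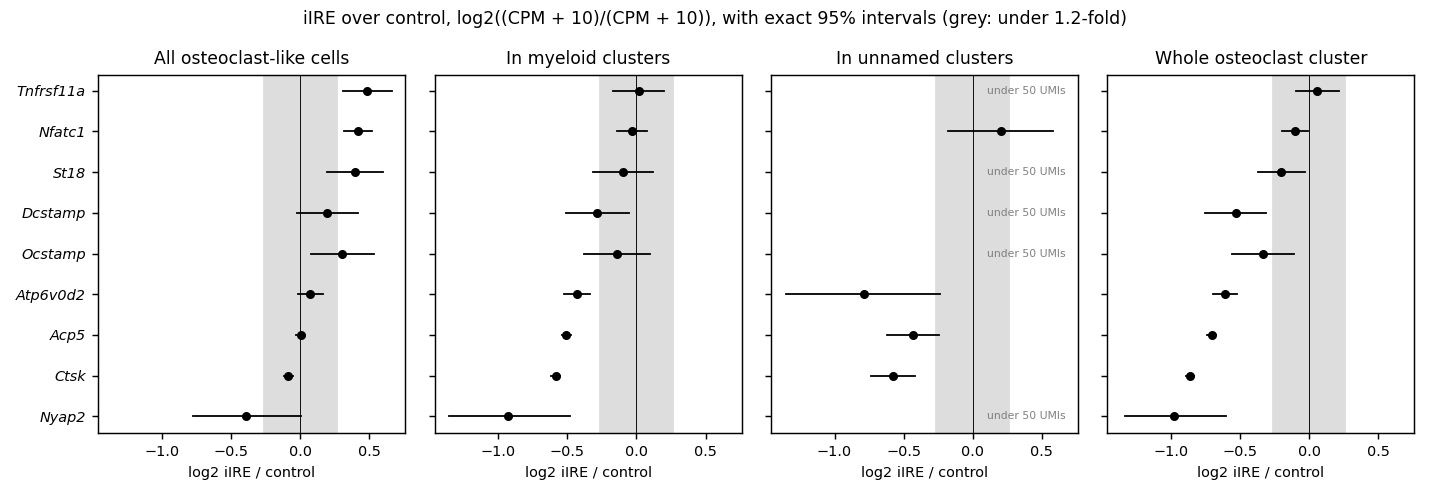
Log2 ratio of iIRE over control for the members with at least 50 UMIs, with exact 95% intervals, in all osteoclast-like cells, in those of myeloid clusters, in those of unnamed clusters and in the whole osteoclast cluster; the grey band marks less than 1.2-fold. Tnfrsf11a, Nfatc1, St18 and Ocstamp lie right of the band in the first panel, and no member lies right of it in the other panels.

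In the other classes, members were again compared between the libraries. Of 7 members counted in macrophage-like cells, Acp5 at 0.35 (0.16 to 0.54) and Ctsk at 0.28 (0.05 to 0.50) were higher and Dcstamp at -0.83 (-1.02 to -0.65) was lower in the iIRE library, where 6.45% of 9877 genes were higher and 3.99% lower. Ctsk rested on 23 control and 37 iIRE UMIs, and 22 of the latter lay in a single cell. The Dcstamp UMIs rested on the 56 and 32 cells with at least 3 of them. In tumor cell-like cells, 0 of 6 members passed, where 1.16% of 14166 genes did. In fibroblast-like cells, 0 of 6 passed, where 3.57% of 12111 genes did. Members near 1 CPM could hardly pass with 10 CPM added. Without it, St18 was 1.28-fold higher in the iIRE library in tumor cell-like cells (1.35 and 1.73 CPM) and 1.25-fold higher in fibroblast-like cells (1.91 and 2.40 CPM). In host fibroblast-like cells alone, Ctsk was lower at -0.29 (-0.53 to -0.06) and Nfatc1 higher at 0.29 (-0.03 to 0.62), of 3 counted, where 40.1% of genes passed.

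The other genes of osteoclasts were taken as a list of 86 in 7 roles, of which 85 were in the matrix. In osteoclast-like cells of myeloid clusters over macrophage-like cells, 28 of 76 counted were at least 2-fold higher in both libraries and 16 lower, where 5.2% and 8.62% of all genes were so. The median log2 ratio over the list was 0.51 in the control and 0.23 in the iIRE library. The list includes the osteoclast markers that named the osteoclast cluster, among them Mmp9, Itgb3, Oscar, Siglec15, Src, Car2 and Tcirg1. Their higher level was partly set by the naming of the cluster, so these counts are a description. Of the genes of acid secretion, 15 of 22 were higher and 1 lower. Examples are Atp6v1b2, a pump subunit, at 3.21 and 2.79, Snx10, a sorting nexin that osteoclasts need for their ruffled border, at 2.99 and 2.10, Car2, the carbonic anhydrase that supplies protons, at 2.83 and 2.77, and Tcirg1, the pump subunit a3, at 2.01 and 1.56. Atp6v0a1, the a1 subunit, was lower at -2.18 and -2.07.

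Among matrix proteases, Mmp9 stood at 6223 CPM in control and 3990 CPM in iIRE osteoclast-like cells of myeloid clusters, with log2 ratios over macrophage-like cells of 8.08 and 6.78, and Mmp14 was higher at 2.36 and 1.94. The lysosomal cathepsins Ctsb, Ctsl, Ctsd and Ctss were all lower, with values from -2.74 to -1.39, and so were Mmp12 at -4.31 and -2.14 and Mmp13. In fusion and adhesion, 5 of 11 were higher, among them Itgb3 at 2.78 and 2.14, Siglec15 at 2.30 and 2.01 and Src, the kinase of the resorbing cell's attachment, at 2.26 and 2.44. Of the transcription factors, 4 of 10 were higher and 0 lower, with Jdp2 at 3.88 and 3.27 and Fosl2, a subunit of AP-1, at 1.47 and 1.18. Of the repressors, 0 of 4 counted were higher and 3 were lower, among them Irf8 at -3.43 and -3.02 and Bcl6 at -1.06 and -1.52. Of receptor signaling, only Oscar, a costimulatory receptor of osteoclasts, was higher, at 4.04 and 2.85, and 4 of 15 were lower, among them Lilrb4a, an inhibitory receptor, at -4.16 in the iIRE library. Of the secreted factors, 1 of 5 was higher, Sema4d at 1.28 and 1.34, and Spp1 was lower at -1.03 and -1.11.

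**Figure D5:**
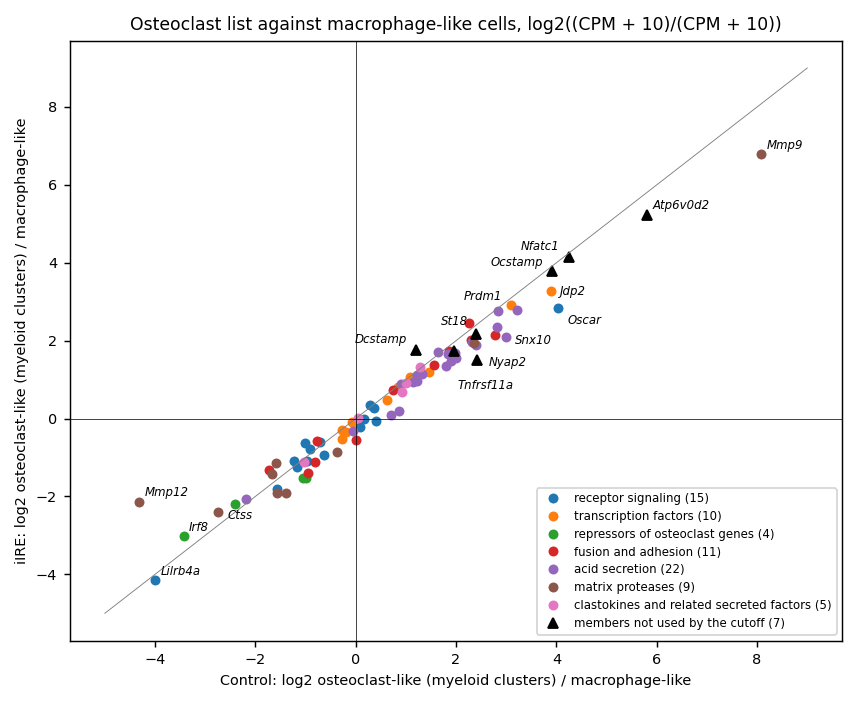
Log2 ratio over macrophage-like cells of the osteoclast list by role (dots) and of the members that the cutoff did not use (triangles), in osteoclast-like cells of myeloid clusters, control on the horizontal and iIRE on the vertical axis. The grey line marks equal values; Mmp9 lies farthest right at 8.08 and 6.78, the members lie between 1.21 and 5.81 on the control axis, and Lilrb4a and Irf8 lie low in both libraries.

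Between the libraries, more genes of the list were lower than higher in the iIRE library in myeloid clusters. In osteoclast-like cells of myeloid clusters, 28 of 67 genes counted were lower in the iIRE library and 7 higher, with a median log2 ratio of -0.23, where 14.1% and 21.3% of all genes were so and the median of all genes was 0.04. Acid secretion had 12 of 21 lower and 0 higher, with Snx10 at -0.70, Atp6v1e1 at -0.64, Ostm1 at -0.62 and Atp6v1g1 at -0.56. Mmp9 was at -0.64, Itgb3 at -0.69 and Oscar at -1.21, the last from 157 to 62.0 CPM. The higher genes were Mmp12 at 1.46, Ctsl at 0.50, Ctss at 0.42, Sirpa at 0.41, Spp1 at 0.32, Pira2 at 0.30 with an interval of -0.14 to 0.74, and Mitf at 0.27. Over all osteoclast-like cells, 20 of 76 were higher and 19 lower with a median of 0.04, and 6 of 22 genes of acid secretion were higher and 0 lower. The counts for the list thus differed with and without the cells of unnamed clusters, as they did for the members.

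Within the osteoclast cluster, genes of the list also differed across the cutoff. Mmp9 had log2 ratios of 5.69 and 5.44 in osteoclast-like cells of myeloid clusters over those under the cutoff, Oscar 4.06 and 2.75, Itgb3 2.96 and 2.27, Snx10 2.50 and 2.07 and Slc4a2, the anion exchanger that accompanies acid secretion, 2.24 and 1.94. Lilrb4a at -1.13 and -1.22 and Adam8 at -1.32 and -1.06 were lower. Jdp2 at 0.65 and 0.54, Prdm1 at 0.81 and 0.56 and Mitf at 0.16 and 0.05 were under 2-fold, as were Nfatc1 and St18.

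The genes whose levels were most like the mean of Atp6v0d2, Ocstamp and Dcstamp were ranked over 19 profiles of a class in a library with at least 20 cells, among 15650 genes. They were Abcb4, Fabp7, Dner, Ppp1r1a, Ppargc1b, Pde8b, Hist2h2be, Slc18a1, Slc37a2 and Slc16a7, with Pearson correlations of log2(CPM + 10) from 0.96 to 0.99. Slc37a2 stood at 417 and 459 CPM in all osteoclast-like cells and 41.3 and 49.0 CPM in macrophage-like cells. Ppargc1b was at 107 and 113 against 5.31 and 6.22 CPM, and Abcb4 at 51.6 and 69.0 against 5.58 and 6.70 CPM. Others were low even in all osteoclast-like cells, with Dner at 5.02 and 3.93 CPM and Pde8b at 7.70 and 10.0 CPM. Hist2h2be was at 9.38 and 8.30 CPM and Fabp7 at 9.71 and 14.0 CPM. At such levels the added 10 CPM brings the profiles close together. The other members had correlations of 0.96 for St18, 0.94 for Nyap2, 0.90 for Acp5, 0.81 for Ctsk, 0.72 for Tnfrsf11a, 0.71 for Nfatc1 and -0.15 for Tnfsf11. For Tnfsf11 the 5 most alike were Fam129c, Skap1, Klrb1a, Igflr1 and Trac, with correlations from 0.95 to 0.97, and Trac, a constant chain gene of the T cell receptor, is one of the markers that named the T/NK-like cells. The profiles share 2 libraries, their depth and the rule for the classes, so these values are a description.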

How the data were processed

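Single-cell RNA sequencing was analysed in 2 libraries, 1 of control and 1 of iIRE tumors, so no test between groups was possible. The authors made the UMI counts with Cell Ranger and STAR on mm10, and the deposited counts are raw whole numbers. The matrix header names Cell Ranger 7.0.1, and the methods of the study name another version. The barcode ending, 1 or 2, was read as the library number given in the labels, and 0 columns were left without a sample. The depth and cell numbers stated by the study did not settle this reading.

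Cells needed at least 200 genes, 1000 UMIs and a complexity (log10 of genes over log10 of UMIs) of 0.7, with at most 5% mitochondrial and 5% hemoglobin UMIs. Doublets were scored within a library against 1 simulated sum per cell, and the highest 0.8% per 1000 cells were removed. Counts were scaled to 10000 per cell, and 2000 variable genes, 30 components and 20 neighbors were clustered with the Leiden method at resolution 1.0 in scanpy 1.11.5, without the members and the osteoclast list. A cluster was named from at least 3 markers at 2-fold or more in 20% of cells, with a marker level of at least 25% of the highest. A cluster led by islet hormone genes was left unnamed after its genes were seen. The members and lists were chosen with earlier results of these data known.

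Levels are CPM over summed UMIs with exact Poisson intervals, and shares have exact Clopper-Pearson intervals, both at 95%. Ratios carry exact conditional intervals, and 10 CPM was added to both values unless stated. Genes needed 50 UMIs over the groups compared and were counted past 1.2-fold between libraries, and past 2-fold in both libraries between classes. The step was tested on simulated data with known answers, drawn with counting error alone and no variation between cells. There 100% of 2-fold changes, 85% of smaller changes and 10.3% of unchanged genes were counted past 1.2-fold. The genes named are the members, list genes of each role by level or size of difference, and the genes most alike in pattern. Alternatives were other cutoffs, filters, resolutions, doublet removal, class rules, TMM scaling from edgeR 4.0.16 and thinning to 2000 UMIs. Python 3.11.15 was used. Promoters came from RefSeq on GRCm38.p6.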

Additional observations from a re-analysis of the deposited data

Results flagged for a closer look

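Cells that met the Acp5 and Ctsk cutoff were also found among the barcodes removed as doublets, which no main comparison used. In the control library 72 of the 2538 removed barcodes met it, or 2.84%. In the iIRE library 70 of 2836 met it, or 2.47%. Of the barcodes that passed the filters and met the cutoff, 72 were thus removed and 288 kept in the control library, and 70 removed and 195 kept, or 26.4% removed, in the iIRE library, while 14.2% and 15.1% of all barcodes that passed the filters were removed. They were left out of the values given for osteoclast-like cells.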

How the results depend on the processing

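No paired analysis was possible because each group is 1 library. With no replicates, intervals cover counting error and no difference between libraries could be tested. The log2 ratio of the share of osteoclast-like cells, iIRE over control, was -0.63. It moved to -0.29 at 10 UMIs of each gene and to -0.19 after thinning. It was reversed at 20 UMIs (0.12), in myeloid clusters alone (0.14) and for the whole osteoclast cluster (0.59). At 20 UMIs the intervals of the shares overlapped, and for myeloid clusters alone none is given. Of the members in osteoclast-like cells, 5 passed 1.2-fold between the libraries, 4 higher and 1 lower in iIRE. At 10 UMIs 3 passed, at 20 UMIs 4, in myeloid clusters 5, in the osteoclast cluster 6 and in unnamed clusters 3, with 0 higher in each, while means over cells gave 6 higher and 0 lower. For Ocstamp, Nfatc1 and St18 the ratio was reversed to -0.17, -0.014 and -0.043 at 20 UMIs, to -0.14, -0.030 and -0.10 in myeloid clusters, and to -0.33, -0.10 and -0.20 for the osteoclast cluster. In unnamed clusters alone Ocstamp was at -0.77, Tnfrsf11a at -0.42 and Nyap2 at 0.50, each with too few UMIs to be counted. Ocstamp had 20 control and 2 iIRE UMIs there, Tnfrsf11a 32 and 7, and Nyap2 0 and 2. In macrophage-like cells 3 members passed, and 6 did at Leiden resolution 2.0 and with classes from marker UMIs. In fibroblast-like cells 0 passed, and 2 did in host cells alone. Between classes 6 members passed, and 3 did at 1 UMI of each gene, where Tnfrsf11a over macrophage-like cells was -0.13 in the control. The log2 ratio of Tnfsf11 in fibroblast-like over tumor cell-like cells, both libraries pooled and no CPM added, was 2.98, and 2.31 with no doublets removed, 2.23 at 10% mitochondrial UMIs and 2.33 at resolution 2.0. The causes were not tested. TMM scaling changed none of these counts. The cutoff of 20 UMIs, the osteoclast cluster and the unnamed clusters or host cells taken alone were added after the data were seen.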
